A study of Mus musculus with 6 samples.

Results

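The genes described here are 53 mouse genes for enzymes and carriers that take glucose to pyruvate, interconvert pyruvate and lactate, and carry carbon into and around the citric acid cycle. They were chosen by name, as the rows of the gene table whose identifier maps to a listed symbol, and all 53 were found among the 54281 rows. Their levels were read in 6 libraries of GLUTag cells, a murine line of GLP-1-secreting enteroendocrine cells that was derived from a tumour driven by a viral T antigen under the proglucagon promoter, so that the line is a proliferating model of a gut endocrine cell. The cells were untreated and had grown for 48 h on Matrigel in medium with 1 g/L glucose and 10% heat-inactivated FBS. Plate 1 held 3 replicates at passage 23 and plate 2 held 3 replicates at passage 27. This confounds plate with passage so that these cannot be told apart, and no treatment was compared. The labels do not say whether the replicates of a plate came from separate cultures. The p-values over libraries thus measure the spread between these replicates, which may be technical. Each library was made from the 3′ end of polyadenylated transcripts, so a count stands for a transcript whatever its length, and levels are given as counts per M counts of the library (CPM) and compared between genes without division by length.

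Glycolysis splits glucose into pyruvate in the cytosol. Phosphofructokinase is the committed step, and the PFKFB enzymes set the level of its activator fructose 2,6-bisphosphate. Lactate dehydrogenase reduces pyruvate to lactate, which leaves the cell through monocarboxylate carriers, whereas the mitochondrial pyruvate carrier and pyruvate dehydrogenase commit pyruvate to the citric acid cycle. Pyruvate dehydrogenase kinases (PDKs) switch that entry off, and pyruvate carboxylase refills the cycle from pyruvate. Most steps have several isozymes encoded by separate genes and used by different tissues, such as the muscle and heart subunits of lactate dehydrogenase. In endocrine cells that sense nutrients the choice matters because glucose metabolism is coupled to hormone release, and in pancreatic β-cells Ldha and the lactate carrier Slc16a1 are known to be kept low.

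The libraries held between 21399987 and 36488198 counts (27.3 ± 5.76 M, SD, n = 6), and 3 counts, the limit that a count of 0 allows, correspond to 0.0822 to 0.14 CPM for counting error only. The columns of plate 2 could not be matched to replicate numbers and are called here the low, middle and high library by their total count. Values in every library are listed in the order replicates 1, 2 and 3 of plate 1, then the low, middle and high libraries of plate 2. Every pair of libraries differed beyond sampling noise (chi-square per gene of at least 10.2). The middle library of plate 2 stood apart from the other libraries of its plate: among 5031 genes with at least 30 CPM it had 346 genes more than 2-fold lower and 2 more than 2-fold higher, and results that rest on it are given with and without it. Enteroendocrine markers (Gcg, Cck, Chga, Chgb, Neurod1 and Pcsk1, with Pyy near 0) summed to between 4951 and 6768 CPM, where 5 fibroblast markers summed to 4.71 to 7.06 CPM and 6 absorptive enterocyte markers to 1.87 to 4.60 CPM. Goblet and Paneth cell markers summed to 40.3 to 47.7 CPM, mostly Tff3 (37.8 CPM), with Spink4 at 6.04 CPM and Muc2 and Lyz1 at or near 0.

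Lactate dehydrogenase and the cytosolic and mitochondrial forms of phosphoenolpyruvate carboxykinase were each read almost wholly from 1 of 2 genes, and the promoters of these 4 genes are shown for that reason. The windows are 300 nt around annotated starts on GRCm38.p6, taken from RefSeq, and capitals mark ACGTG read on either strand, the core of the element bound by hypoxia-inducible factors, which is also contained in the E-box CACGTG. Ldha (ENSMUSG00000063229, chromosome 7, 46841475 to 46855627, plus strand) has windows at different starts. The lactate dehydrogenase windows read as follows.
Ldha, upstream start, chr7:46845554-46845853, plus strand: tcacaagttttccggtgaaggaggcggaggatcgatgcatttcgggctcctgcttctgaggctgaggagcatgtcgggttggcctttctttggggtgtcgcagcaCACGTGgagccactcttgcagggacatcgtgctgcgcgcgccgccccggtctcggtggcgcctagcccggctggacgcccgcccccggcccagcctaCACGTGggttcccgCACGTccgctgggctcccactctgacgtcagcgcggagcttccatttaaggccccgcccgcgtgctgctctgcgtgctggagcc
Ldha, downstream start, chr7:46846832-46847131, plus strand: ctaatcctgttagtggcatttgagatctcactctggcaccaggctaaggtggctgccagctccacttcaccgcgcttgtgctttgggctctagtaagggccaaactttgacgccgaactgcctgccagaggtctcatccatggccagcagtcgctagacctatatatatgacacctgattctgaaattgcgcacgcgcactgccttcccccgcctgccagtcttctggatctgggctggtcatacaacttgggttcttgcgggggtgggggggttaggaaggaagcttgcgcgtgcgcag
Ldhb, chr6:142507908-142508207, minus strand: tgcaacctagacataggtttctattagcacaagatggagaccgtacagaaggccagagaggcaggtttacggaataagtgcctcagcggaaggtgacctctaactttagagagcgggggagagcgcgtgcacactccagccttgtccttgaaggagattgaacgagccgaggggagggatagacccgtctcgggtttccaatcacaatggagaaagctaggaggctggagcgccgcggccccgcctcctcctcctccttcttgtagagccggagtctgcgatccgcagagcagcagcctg
The upstream Ldha window held 3 such stretches and 30 CpG dinucleotides, the downstream Ldha window held 0 and 13, and the Ldhb window held 0 and 17. Over the members, 52 of which matched an entry, the letters occurred in 29 of 80 windows (36.25%), and among all 32851 windows of the same length in 6447 (19.62%). Windows of the same gene can overlap, as those of Ogdh do, so these shares count windows and not independent genes. The median number of CpG dinucleotides was 18 in the member windows and 7 in all windows. A match describes the letters of the window and is not evidence of binding.

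The phosphoenolpyruvate carboxykinase windows follow, with no stretch in capitals because neither held the letters searched.
Pck1, chr2:173152823-173153122, plus strand: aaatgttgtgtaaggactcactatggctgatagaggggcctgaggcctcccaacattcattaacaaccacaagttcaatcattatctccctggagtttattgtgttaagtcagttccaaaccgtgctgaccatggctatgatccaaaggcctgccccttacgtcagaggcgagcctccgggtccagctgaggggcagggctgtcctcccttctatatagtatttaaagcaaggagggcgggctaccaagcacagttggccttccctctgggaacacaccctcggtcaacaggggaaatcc
Pck2, chr14:55540016-55540315, plus strand: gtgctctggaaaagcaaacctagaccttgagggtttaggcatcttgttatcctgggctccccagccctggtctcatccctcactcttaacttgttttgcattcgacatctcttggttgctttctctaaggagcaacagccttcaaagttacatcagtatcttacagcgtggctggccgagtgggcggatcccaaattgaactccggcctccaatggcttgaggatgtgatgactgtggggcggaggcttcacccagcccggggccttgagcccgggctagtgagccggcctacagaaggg
The Pck1 window held 6 CpG dinucleotides and the Pck2 window 9.

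As a group the pathway was strongly expressed. The 53 genes summed to 6266 ± 456 CPM (SD, n = 6 libraries), and 47 of them had more than 3 counts in every library. Their median was 62.8 CPM. At least 1 CPM in every library was reached by 46 members and 12360 genes. Of these members 35 lay above 21.4 CPM, the median of those genes. By mean, 18 members exceeded 100 CPM, beside 1734 of all genes. The 8 lower-step genes of glycolysis, from Gapdh to the pyruvate kinases, made up 1961 ± 172 CPM and the 7 upper-step genes 1109 ± 95.9 CPM. The 10 genes of the citric acid cycle summed to 1340 ± 83.3 CPM, and the ratio of the 15 glycolytic genes to these 10 genes was 2.29 ± 0.122 (SD, n = 6), between 2.16 and 2.46 in every library. The cytosolic partners and glutamate-linked enzymes summed to 798 ± 122 CPM, pyruvate entry with its kinases to 557 ± 63.1 CPM, lactate dehydrogenase with its carriers to 290 ± 30.96 CPM, and the carboxylation and gluconeogenesis genes to 185 ± 21.7 CPM, most of it Pck2. The smallest class was the PFKFB enzymes with 27.3 ± 2.27 CPM.

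**Figure D1:**
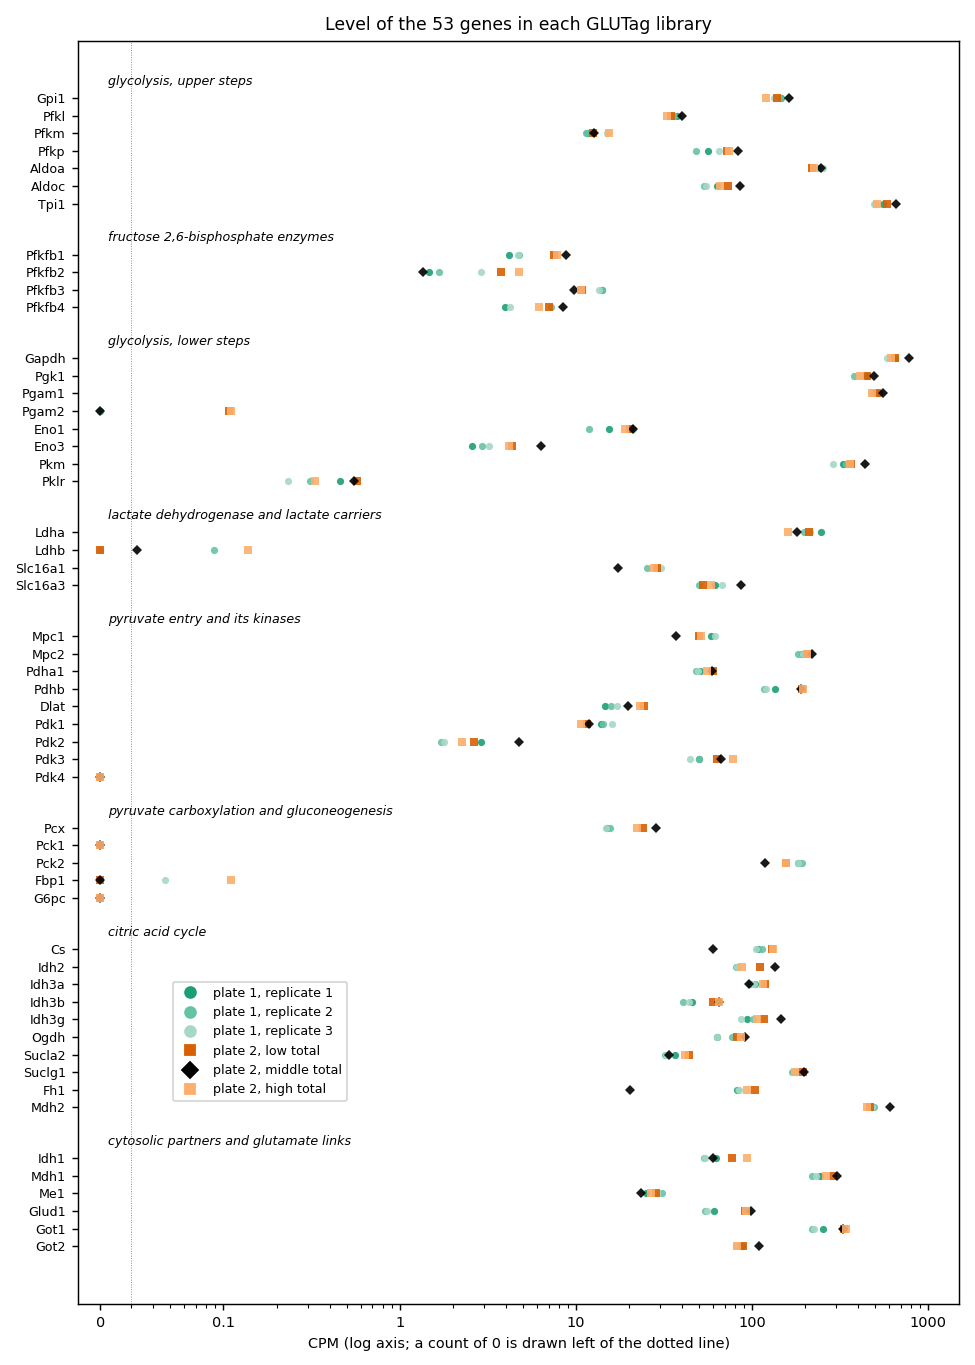
CPM of each of the 53 genes (rows, grouped by class) on a log axis, with 1 marker per library; circles are plate 1, squares and the black diamond are plate 2, and a count of 0 is drawn left of the dotted line. Gapdh, Tpi1, Pgam1 and Mdh2 lead the plot with means of 651, 549, 505 and 495 CPM, while Pdk4, Pck1 and G6pc sit at 0 in every library and the black diamond falls left of the other markers for Fh1 and Cs.

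Gapdh, the glycolytic enzyme that makes bisphosphoglycerate and NADH, was the highest member. It had 647, 639, 586, 646, 775 and 613 CPM and ranked 202nd of all genes by mean. The middle library of plate 2 was the highest for it. Triose phosphate isomerase Tpi1 followed with 549 ± 64.2 CPM (SD, n = 6), phosphoglycerate mutase Pgam1 with 524, 489, 479, 511, 550.3 and 478 CPM, and phosphoglycerate kinase Pgk1, the first ATP-yielding step, with 430 ± 39.6 CPM. Glucose 6-phosphate isomerase Gpi1 was lower, at 146, 144, 133.6, 138, 161 and 119.2 CPM, with the highest and the lowest value both on plate 2. Pgam1 had the smallest coefficient of variation of the 42 members with at least 100 counts in every library (5.69%), Fh1 the largest (37.9%). The rank of Fh1 rests on the middle library of plate 2, at 20.2 CPM where the others lay at 82.5 to 103.8 CPM. Without that library Fh1 had a mean of 89.5 CPM. The median over these members was 15.7%, and over the 9860 genes with that many counts 18.3%.

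To ask which isozyme or subunit gene of each step had more transcripts, the log2 ratio of CPM + 1 was taken for both genes of a pair in each library. The pairs of Mpc1 with Mpc2, of Pdha1 with Pdhb and among the Idh3 genes are subunits of the same complex, not isozymes. Of 30 pairs within families, 24 had both genes above 3 counts in every library and were tested over the 6 libraries by flipping the signs of the ratios (exact permutation, two-sided), for which p cannot fall below 0.03125. One gene was higher in every library in 21 of the 24 pairs, each with exact permutation p = 0.03125 and 0.0357 after Benjamini-Hochberg adjustment over the tested pairs. These p-values treat the 6 libraries as independent, which the labels do not state. The pairs Pfkfb1 and Pfkfb4, Idh1 and Idh2, and Idh3a and Idh3g were not separated.

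**Figure D2:**
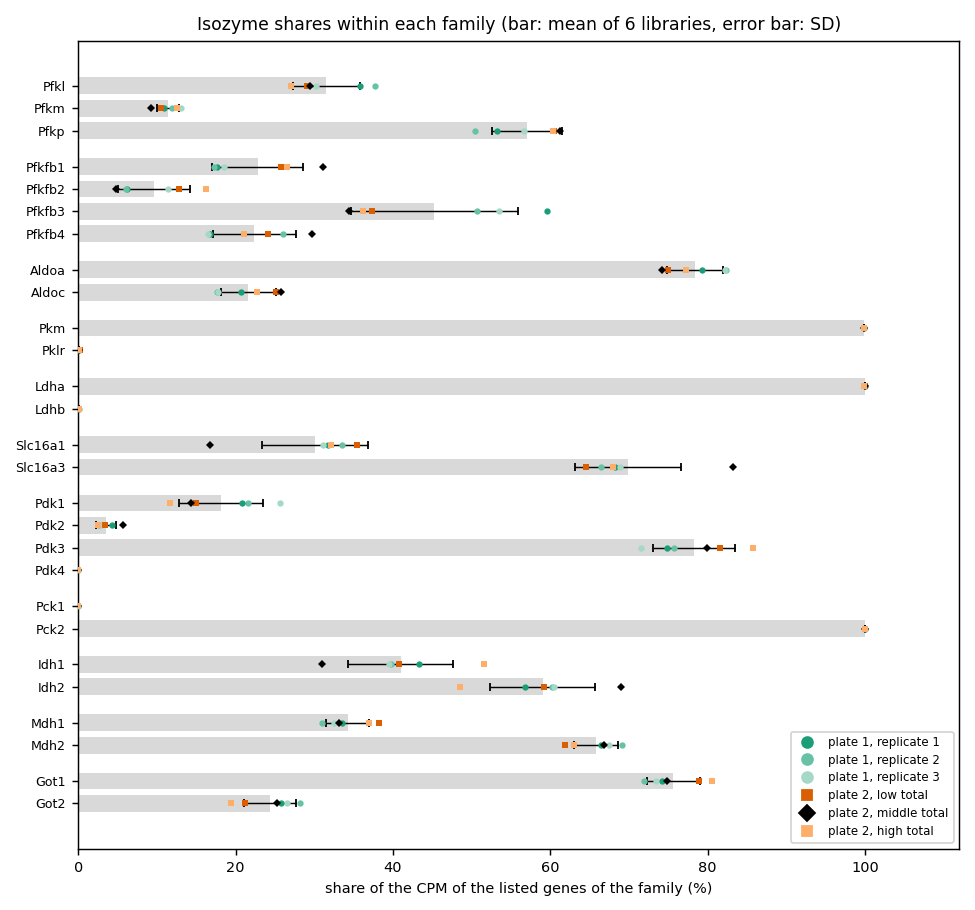
Share of each gene in the summed CPM of the listed genes of its family (horizontal axis, %), with the bar as the mean of 6 libraries, the error bar as SD and 1 marker per library. Pkm, Ldha and Pck2 take nearly the whole of their families, while Pfkp, Pfkl and Pfkm share the phosphofructokinase transcripts at 57.1%, 31.5% and 11.4%.

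Phosphofructokinase was a mixture led by Pfkp, the platelet isoform (ENSMUSG00000021196, chromosome 13, 6579768 to 6648777, minus strand). Pfkp had 55.8, 48.1, 64.8, 72.0, 83.1 and 73.5 CPM, with each library of plate 2 above each of plate 1 on this scale, whereas the plates overlapped on the TMM scale used below. Pfkl, the liver isoform, had 37.6, 35.9, 34.5, 34.5, 40.0 and 32.9 CPM and lay below Pfkp in every library (mean log2 of Pfkl over Pfkp -0.84 ± 0.29, SD, n = 6 libraries). Pfkm, the muscle isoform, had 11.5, 11.4, 14.95, 12.5, 12.6 and 15.3 CPM and was the lowest isoform in every library. The share of Pfkp was 57.1 ± 4.47%, that of Pfkl 31.5 ± 4.21% and that of Pfkm 11.4 ± 1.42% (SD, n = 6).

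All 4 PFKFB genes, whose products make and degrade fructose 2,6-bisphosphate, were detected at low levels. Pfkfb3, the isozyme with the strongest bias towards synthesis, was the highest in every library with 14.1, 14.0, 13.6, 10.9, 9.80 and 10.6 CPM, and its plate 2 values all lay below its plate 1 values. Pfkfb1, the liver isozyme, went the other way with 4.17, 4.77, 4.72, 7.51, 8.83 and 7.81 CPM. Pfkfb4 had 6.18 ± 1.77 CPM and Pfkfb2, the heart isozyme, 2.65 ± 1.40 CPM (SD, n = 6). By coefficient of variation Pfkfb2 was the most variable of the 4 (52.7%), although its SD was the smallest. It was at 1.36 CPM in the middle library of plate 2 and 4.77 CPM in the high one. Pfkfb1 and Pfkfb4 differed by a mean log2 of 0.02 ± 0.27 (exact permutation p = 0.875, adjusted 0.913). Pfkfb3 made up 54.6% of the PFKFB transcripts on plate 1 and 36.0% on plate 2.

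Aldolase was mostly Aldoa, the muscle and ubiquitous isozyme, with 243.6, 248.7, 252.3, 218.0, 246.2 and 223.0 CPM. Aldoc, the brain isozyme, had 63.4, 53.4, 54.5, 73.0, 85.5 and 65.7 CPM and thus 21.6 ± 3.52% of the pair (SD, n = 6). Aldoa was the higher of the pair in every library. The symbol Aldoa maps to a further row, ENSMUSG00000114515, which held 0.0834 to 0.521 CPM and was not added. Of the phosphoglycerate mutases, muscle Pgam2 had 0, 0, 0, 0.107, 0 and 0.110 CPM (at most 4 counts). Over the 6 libraries it held 7 of the 82719 counts of Pgam1 and Pgam2 (0.00846%, exact 95% interval 0.00340 to 0.0174%, for counting error only). All were in the low and high libraries of plate 2. The mean of Pgam2 fell from 0.0361 to 0.0219 CPM without the low library and to 0.0214 CPM without the high one.

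Pyruvate kinase, the last step of glycolysis, was Pkm (ENSMUSG00000032294, chromosome 9, 59656368 to 59679375, plus strand). Pkm had 329, 342, 289, 365, 435 and 358 CPM. Pklr, the liver and red cell gene that is induced by glucose in liver and β-cells, had between 5 and 17 counts in a library and 0.408 ± 0.138 CPM (SD, n = 6). Pooled over libraries, Pklr held 68 of 58647 counts of the pair, or 0.116% (exact 95% interval 0.0900 to 0.147%, for counting error only). Its share in single libraries ran from 0.0807% to 0.156%. The annotation places Hcn3, at 2.57 CPM, on the opposite strand within the span of Pklr, and the strand setting of the counting is not given in the sources used here, so that Pklr may hold reads of its neighbour. The muscle and embryonic splice forms of Pkm share their 3′ end and cannot be told apart in these libraries.

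Lactate dehydrogenase was encoded almost wholly by Ldha, the muscle-type subunit. Ldha had 245, 197, 214, 209.6, 179 and 159.5 CPM and ranked 779th of all genes. The high library of plate 2 was the lowest and replicate 1 of plate 1 the highest. Ldhb, the heart-type subunit (ENSMUSG00000030246, chromosome 6, 142490249 to 142507957, minus strand), had 0, 2, 0, 0, 1 and 5 counts, which lay at or near the limit of detection. Over the 6 libraries Ldhb held 8 of the 32130 counts of the pair, or 0.0249% (exact 95% interval 0.0108 to 0.0491%, for counting error only). The high library of plate 2 gave 5 of these 8 counts, and without it the mean of Ldhb fell from 0.0430 to 0.0241 CPM. The upstream Ldha window printed above is one of the 29 with the searched letters, and the Ldhb window is not.

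Both proton-coupled lactate carriers of the list were expressed, and Slc16a3 (MCT4), the carrier typical of lactate-exporting glycolytic cells, was the higher in every library. Slc16a3 had 61.9, 50.2, 67.3, 52.9, 85.9 and 58.8 CPM. Slc16a1 (MCT1) had 28.8, 25.3, 30.4, 29.0, 17.3 and 27.8 CPM. The middle library of plate 2 was the highest for Slc16a3 and the lowest for Slc16a1, and it took the share of Slc16a3 to 83.2% where the other libraries lay between 64.6% and 68.9%. The mean log2 of Slc16a1 over Slc16a3 was -1.22 ± 0.51 (SD, n = 6), and -1.01 without that library. Slc16a7, a high-affinity carrier that is not a member, was at 5.22 CPM, and Bsg (basigin), the chaperone that Slc16a1 and Slc16a3 need at the membrane, was at 297 CPM.

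At the mitochondrial entry of pyruvate, both subunits of the mitochondrial pyruvate carrier were present. Mpc2 had 193, 181, 195.6, 208, 219 and 205 CPM and Mpc1 had 58.5, 49.6, 61.2, 49.9, 36.8 and 51.2 CPM, so Mpc2 was the higher in every library (mean log2 of Mpc1 over Mpc2 -1.96 ± 0.32). For pyruvate dehydrogenase, the E1 β subunit Pdhb had 135, 117, 121, 193, 190.1 and 195 CPM, with the 3 libraries of plate 2 above those of plate 1. The E1 α subunit Pdha1 had 53.8 ± 5.01 CPM and the E2 subunit Dlat 19.1 ± 3.97 CPM. Transcript levels of the subunits of one complex thus differed by several fold, with Pdhb above Pdha1 in every library (mean log2 of Pdha1 over Pdhb -1.51 ± 0.23).

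The inhibitory kinases of that complex were dominated by Pdk3 (ENSMUSG00000035232, chromosome X, 93764607 to 93832201, minus strand). Pdk3 had 49.9, 50.2, 44.7, 63.1, 66.2 and 77.9 CPM, with every plate 2 library above every plate 1 library on this scale. Pdk1, a kinase induced by hypoxia, had 13.9, 14.3, 16.0, 11.6, 11.8 and 10.6 CPM and went the other way. Pdk2 had 2.66 ± 1.11 CPM (SD, n = 6). Pdk4, the kinase of fasted muscle and liver, had a count of 0 in every library, and Pdk3 was at least 318.7-fold higher than the 3 counts that a 0 allows in each library. The shares were 78.3 ± 5.17% for Pdk3, 18.2 ± 5.31% for Pdk1 and 3.56 ± 1.25% for Pdk2. The order Pdk3, Pdk1, Pdk2 held in each of the 6 libraries.

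Of the carboxylation and gluconeogenesis genes, Pck2, the mitochondrial phosphoenolpyruvate carboxykinase (ENSMUSG00000040618, chromosome 14, 55540266 to 55551242, plus strand), had 183, 193, 182, 156, 119 and 155 CPM. Its 3 plate 2 values lay below its 3 plate 1 values. Pck1, the cytosolic enzyme of liver and kidney gluconeogenesis (ENSMUSG00000027513, chromosome 2, 173153048 to 173159273, plus strand), had a count of 0 in every library, and Pck2 was at least 1225-fold higher than 3 counts. G6pc, the catalytic subunit that releases free glucose in liver, was also at 0 in every library, and liver fructose bisphosphatase Fbp1 had 0, 0, 0.0467, 0, 0 and 0.110 CPM (at most 4 counts). The muscle fructose bisphosphatase Fbp2, which is not a member, was at 59.0 ± 4.61 CPM (SD, n = 6), and the ubiquitous G6pc3 at 34.5 CPM. Pyruvate carboxylase Pcx, which supplies oxaloacetate, had 15.1, 15.6, 14.7, 23.9, 28.5 and 22.1 CPM and was higher in each plate 2 library on this scale.

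Every member of the citric acid cycle was detected in every library. Mdh2, the mitochondrial malate dehydrogenase, was the highest of them with 479, 490.0, 479, 466, 608 and 449.7 CPM (495 ± 56.7, SD, n = 6), then the succinyl-CoA ligase α subunit Suclg1 with 182 ± 11.5 CPM. Citrate synthase Cs had 108 ± 25.8 CPM and fumarase Fh1 78.0 ± 29.5 CPM, both with 1 library far below the rest. Of the subunits of the NAD-dependent isocitrate dehydrogenase, Idh3a (105 ± 9.31 CPM) and Idh3g (108 ± 21.1 CPM) were not separated, with a mean log2 of Idh3a over Idh3g of -0.02 ± 0.30 (exact permutation p = 0.9375), and Idh3b was lower at 53.3 ± 11.2 CPM. Ogdh of the oxoglutarate dehydrogenase complex had 77.1 ± 11.6 CPM, and the ADP-linked ligase subunit Sucla2 36.7 ± 4.98 CPM. The gene Nop56, at 213.7 CPM, lies on the opposite strand within the span of Idh3b, with the same reservation as for Pklr.

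Enzymes that occur in both cytosol and mitochondria differed in which form led. Mitochondrial Mdh2 was above cytosolic Mdh1 (258 ± 32.8 CPM) in every library, with a share of 65.8 ± 2.78% (SD, n = 6). For aspartate transaminase the cytosolic form led: Got1 had 254, 219, 223, 331, 326 and 339 CPM and Got2 had 89.2 ± 10.7 CPM, and Got1 held 75.6 ± 3.35% of the pair. Both of these enzymes belong to the malate-aspartate shuttle, which carries cytosolic NADH equivalents into mitochondria. Mitochondrial Idh2 had 81.9, 80.8, 82.3, 111.5, 134.2 and 87.8 CPM. Cytosolic Idh1 had 62.5, 53.4, 53.7, 76.7, 60.2 and 93.3 CPM. Idh2 was the higher in 5 of 6 libraries, and the high library of plate 2 had the opposite order (mean log2 of Idh1 over Idh2 -0.53 ± 0.40, exact permutation p = 0.0625, adjusted 0.0682). Cytosolic malic enzyme Me1 had 27.2 ± 2.65 CPM. Glutamate dehydrogenase Glud1, which feeds oxoglutarate from glutamate, had 60.8, 53.8, 55.8, 90.6, 98.3 and 92.1 CPM, with plate 2 above plate 1 throughout on this scale.

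Enolase needs a separate account because the row named Eno1 holds few of the transcripts. Eno1, the ubiquitous α-enolase (ENSMUSG00000063524, chromosome 4, 150236721 to 150248879, plus strand), had 15.4, 11.8, 21.04, 20.1, 21.1 and 19.1 CPM and ranked 6767th of all genes, far below its neighbours in the pathway, Pgam1 and Pkm. The gene Eno1b (ENSMUSG00000059040) shares 245 of the 270 31-mers in the last 300 nt of an Eno1 transcript, and its row held 214, 190.0, 193, 211, 207 and 208 CPM. Reads from this end that match both genes do not show which gene they came from. Their sum was 222 ± 11.8 CPM (SD, n = 6), of which 91.9 ± 1.54% stood outside the Eno1 row. Eno1 and Eno1b as 1 sum made up 78.8 ± 2.31% of enolase transcripts, the neuronal form Eno2, which is not a member, 19.8 ± 1.94% (55.9 ± 8.67 CPM), and the muscle form Eno3 1.38 ± 0.398%. Eno3 alone had 3.93 ± 1.37 CPM and lay below the Eno1 row in every library.

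**Figure D3:**
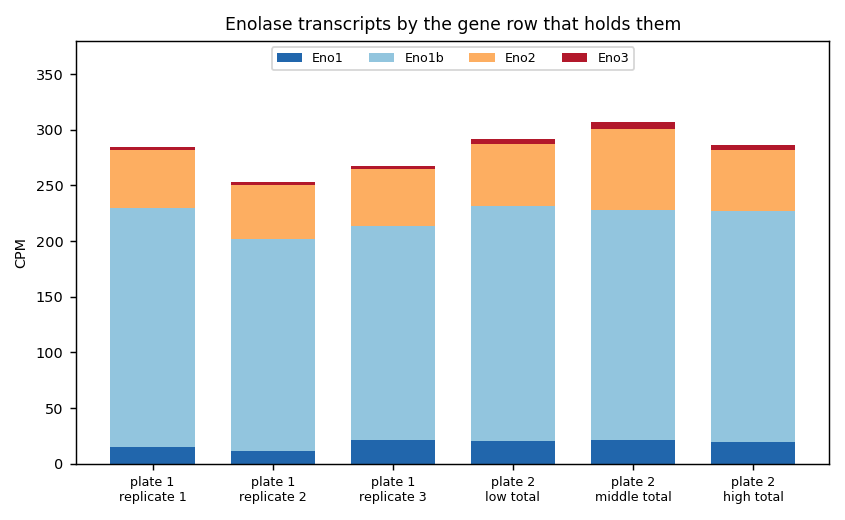
Stacked CPM of the rows Eno1, Eno1b, Eno2 and Eno3 (vertical axis, from 0) in each of the 6 libraries. Eno1b, whose transcript end is nearly the same as that of Eno1, takes 190.0 to 214 CPM of each column and the Eno1 row 11.8 to 21.1 CPM.

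Gapdh has the same limit to a smaller degree. Its end shares at least 100 31-mers with 4 other genes, and 3 of these held counts. Gm7336 had 0, 0, 82.2, 95.6, 95.2 and 84.8 CPM, whereas Gm3272 had 73.1, 66.3, 0, 15.6, 0 and 14.4 CPM, so that the counts fell to different rows in different libraries, and to both in the low and high libraries of plate 2. Gm3839 had 9.67 to 17.1 CPM. Gapdh with these rows was 753 ± 70.1 CPM (SD, n = 6), and 13.6 ± 2.17% of it stood outside the Gapdh row. For Gpi1, Mpc1 and Tpi1 the rows with shared ends held a mean of at most 0.0242 CPM. Of the overlapping neighbours, the opposite-strand gene was above the member for 5 of the 21 members that have one, namely Pfkm (Senp1, 44.9 CPM), Pfkfb1 (Apex2, 18.2 CPM), Pfkfb2 (Yod1, 18.0 CPM), Pklr and Idh3b.

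To see how far these levels varied between the plates, plate 2 was compared with plate 1 across all genes with edgeR's quasi-likelihood test on TMM-scaled counts, a scaling that moved the median log2 fold change of all genes to 0.03 from 0.30 with the library total alone. With all 6 libraries 29 of 15669 genes (0.185%) passed an adjusted p of 0.05, of which 2 were higher and 27 lower on plate 2, and 0 of the 47 members tested were among them. With the total alone the split was 1411 higher and 71 lower. At an unadjusted p under 0.05 there were 14 members, 6 higher and 8 lower, and 2520 genes (16.1%). In bulk libraries, fewer cells with a transcript and less of it per cell cannot be told apart. The median log2 fold change was -0.04 over the 47 members and 0.03 over all genes tested. DESeq2 called 5 members, each lower on plate 2 (Ldha, Mpc1, Pck2, Pdk1 and Pfkfb3), among 579 genes, and limma-voom called 0 members among 10 genes. The smallest adjusted p of a member in edgeR was that of Pck2, at -0.65 on the log2 scale (SE 0.13, adjusted p = 0.083), followed by Pfkfb3 at -0.68 (SE 0.14, adjusted p = 0.091) and Pdk1 at -0.64 (SE 0.14, adjusted p = 0.107).

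Without the middle library of plate 2, edgeR called 1911 of 15894 genes, 1244 lower (7.83%) and 667 higher (4.2%) on plate 2. Among the 47 members 12 were lower and 2 were higher. The plate 2 spread then rests on 2 libraries. Leaving out any other library called 0 members. This fit is described because the middle library stood apart in these same data. Leaving out such a library can lower the spread within plate 2 and so make these adjusted p-values too small. The members called lower came from glycolysis (Pfkl, Gpi1, Aldoa, Gapdh and Pgam1), its regulator Pfkfb3, lactate handling (Ldha and Slc16a3), pyruvate entry and its kinases (Mpc1 and Pdk1), and Pck2 and Mdh2. Over all 6 libraries, the fold changes of Gapdh, Pgam1, Mdh2 and Slc16a3 were -0.15, -0.22, -0.19 and -0.12 with TMM scaling. With the total alone and all 6 libraries they were 0.12, 0.05, 0.07 and 0.14, so their direction in that set depends on the scaling. The middle library also matters. In CPM over the total, the low and high libraries had 52.9 and 58.8 for Slc16a3 (plate 1 mean 59.8) and 466 and 450 for Mdh2 (483). For Gapdh they had 646 and 613 (plate 1 mean 624) and for Pgam1 511 and 478 (498). For Gpi1 and Pfkl the total alone left fold changes of -0.02 and -0.01. Pck2, Pdk1, Pfkfb3, Ldha, Mpc1 and Aldoa remained below 0 with the total alone, at -0.38, -0.38, -0.41, -0.26, -0.30 and -0.12. Under that scaling, however, edgeR called 0 members lower and 7 higher. Among the 6 genes just named the edgeR adjusted p ran from 0.083 for Pfkfb3 to 0.451 for Aldoa. In the same fit without the middle library, the enteroendocrine markers Chga (-0.53, edgeR adjusted p = 0.0015) and Cck (-0.87, adjusted p = 0.0131) were lower and Pcsk1 (0.45, adjusted p = 0.0288) was higher on plate 2, and the goblet cell marker Tff3 was lower (-0.44, adjusted p = 0.0203). Their part in the members' differences was not tested. The members called higher without the middle library were Pdhb and Glud1, which remained above 0 under both scalings.

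**Figure D4:**
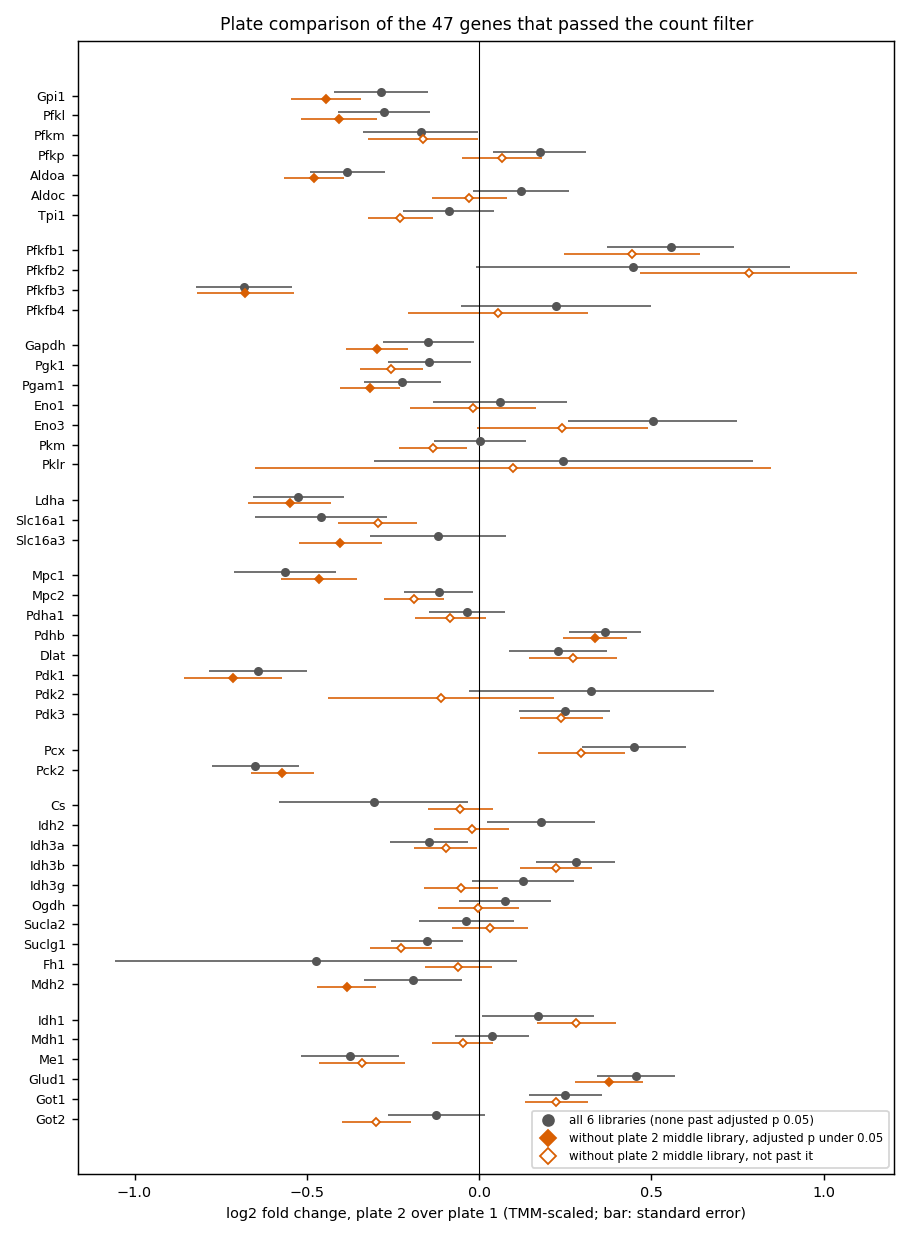
Log2 fold change of plate 2 over plate 1 (horizontal axis, TMM-scaled) for the 47 members tested, with bars as standard errors; grey circles use all 6 libraries and orange diamonds leave out the middle library of plate 2, filled where the adjusted p is under 0.05. Pck2, Pfkfb3, Pdk1, Ldha and Mpc1 lie left of 0 in both fits, and Glud1 and Pdhb right of it.

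The values behind the calls without the middle library are given on the TMM scale. Pck2 had 199.9, 217 and 195.6 TMM-scaled CPM on plate 1 and 139.5, 110.2 and 140.8 on plate 2. Ldha had 267, 222 and 229 on plate 1 and 188, 166 and 145 on plate 2. Aldoa had 266, 280.5 and 270.5 on plate 1 and 195.6, 228 and 203 on plate 2. For these 3 genes no plate 2 library reached the lowest plate 1 library on this scale, whereas in CPM over the total the plates overlapped for Ldha and Aldoa. Without the middle library the log2 fold change was -0.57 for Pck2 (SE 0.092, edgeR adjusted p = 0.0013), -0.55 for Ldha (SE 0.12, adjusted p = 0.0093) and -0.48 for Aldoa (SE 0.088, adjusted p = 0.0030). With all 6 libraries edgeR gave -0.52 for Ldha (adjusted p = 0.125) and -0.38 for Aldoa (adjusted p = 0.152).

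Pfkfb3 and Pdk1 were low genes with little spread within a plate. Pfkfb3 had 15.4, 15.8 and 14.6 TMM-scaled CPM on plate 1 and 9.78, 9.09 and 9.68 on plate 2, and Pdk1 had 15.2, 16.1 and 17.1 on plate 1 and 10.4, 10.98 and 9.68 on plate 2. With that library left out their log2 fold changes were -0.68 (edgeR adjusted p = 0.0067) and -0.72 (adjusted p = 0.0052). Mpc1 had 63.9, 56.0 and 65.6 on plate 1 and 44.7, 34.1 and 46.6 on plate 2 (-0.47 without the middle library, edgeR adjusted p = 0.0130). The direction was opposite for 2 genes. Glud1 had 66.4, 60.7 and 59.8 on plate 1 and 81.3, 91.1 and 83.8 on plate 2, and Pdhb had 147.7, 131.9 and 129.3 on plate 1 and 173, 176.3 and 177.7 on plate 2. Glud1 without the middle library was higher by a log2 of 0.38 (edgeR adjusted p = 0.0233) and Pdhb by 0.34 (adjusted p = 0.0294). On this scale the plates did not overlap for any of these 5 genes, whereas in CPM over the total they overlapped for Mpc1.

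The other members called only without the middle library were Gpi1, Pfkl, Slc16a3, Mdh2, Pgam1 and Gapdh. When the middle library was omitted the log2 fold change was -0.44 for Gpi1 (edgeR adjusted p = 0.0104), -0.41 for Pfkl (0.0276), -0.40 for Slc16a3 (0.0417), -0.38 for Mdh2 (0.0098), -0.32 for Pgam1 (0.0301) and -0.30 for Gapdh (0.0451). For Slc16a3 the middle library had 79.7 TMM-scaled CPM, above every library of plate 1 (56.6 to 72.2), while the low and high libraries had 47.4 and 53.5. For Mdh2 it had 563 where the low and high libraries had 418 and 409. The middle library lay within the plate 1 range for Gpi1 (149.5 against 143.3 to 162.4) and Pfkl (37.1 against 37.0 to 41.1). It also did so for Gapdh (718 against 628 to 721), and lay below that range for Pgam1 (510.3 against 513.3 to 572.6). Other members with large levels that did not pass in either fit included Tpi1 (-0.09 over all 6 libraries and -0.23 without the middle one), Pgk1 (-0.15 and -0.25), Pkm (0.00 and -0.13), Mdh1 (0.04 and -0.05), Got1 (0.25 and 0.22), Mpc2 (-0.12 and -0.19) and Suclg1 (-0.15 and -0.23). Among the isozyme partners, Pfkp (0.18), Aldoc (0.12) and Pdk3 (0.25) had fold changes of the opposite sign to Pfkl, Aldoa and Pdk1 over all 6 libraries, and none of them passed the test. For Aldoc the sign turned, to -0.03, without the middle library.

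The middle library of plate 2 differed most from the other libraries of its plate, among the members of at least 30 CPM, at 2 enzymes of the citric acid cycle. Fh1 (ENSMUSG00000026526, chromosome 1, 175600374 to 175625635, minus strand) had 82.5, 82.8, 84.6, 103.8, 20.2 and 94.1 CPM. Cs (ENSMUSG00000005683, chromosome 10, 128337734 to 128362479, plus strand) had 108, 113, 106, 129, 59.9 and 131 CPM. In both, the middle library lay below the range of the other 5, 4.72-fold for Fh1 and 2.15-fold for Cs against the mean of the other plate 2 libraries, with 1 CPM added to both values as in all folds for this library. With 1 library there is no replicate check of this difference. Past 2-fold, 2 of the 33 members of at least 30 CPM were lower in that library and 0 were higher, beside 6.88% lower among all 5031 genes, and the median log2 difference was 0.11 over the members and -0.03 over all genes. Sdhd, a subunit of succinate dehydrogenase that is not a member, had 1.49 CPM in that library and 28.9 to 77.0 CPM in the others, whereas Sdha (143 CPM) and Sdhb (297 CPM) of the same complex were at their highest there and Sdhc at its lowest (83.9 CPM). By Dixon's ratio, 5 of 47 members had 1 outlying library of the 6, the middle one in each case (Fh1 and Cs low, Mdh2, Got2 and Gapdh high), beside 6.66% of 15708 genes with any outlying library and 4.6% for the middle one. Pfkfb2, at a lower level, had 1.36 CPM there against 3.74 and 4.77 CPM. The cause was not tested.

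**Figure D5:**
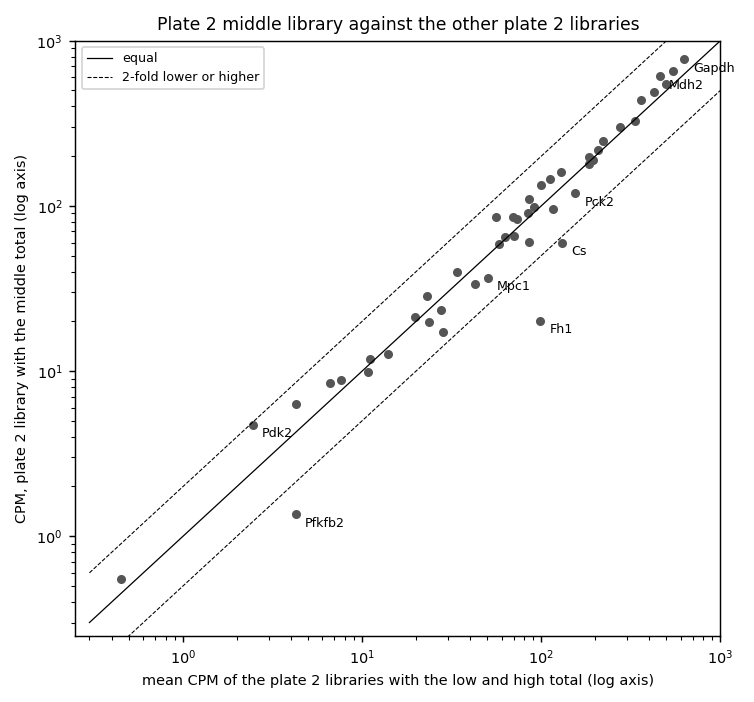
CPM of the members in the middle library of plate 2 (vertical axis, log scale) against their mean in the low and high libraries of plate 2 (horizontal axis, log scale), with the line of equality and dashed lines at 2-fold. Most points lie at or slightly above the line, and Fh1 (4.72-fold lower as CPM + 1), Cs (2.15-fold lower as CPM + 1) and Pfkfb2 fall below the lower dashed line.

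Further genes of the same pathways, from lists of genes that are not members, give the surroundings. Of 44 such genes, 35 had more than 3 counts in every library, with a median of 24.2 CPM over the list, and Pgk2 and Slc16a8 were at 0. Hk2, the insulin-responsive hexokinase of muscle, had 133, 145, 129.6, 96.1, 74.7 and 84.1 CPM and was the single gene of 34 tested that edgeR called between plates (-0.95 on the log2 scale, SE 0.13, adjusted p = 0.0298, with 0.185% of all genes called). Plate 2 was lower than plate 1 in every library for it. Leaving out the middle library, Hk2 (-0.90, edgeR adjusted p = 0.00013) and 3 genes higher on plate 2 (Sdha, Aco1 and Sdhd) passed. That fit called 7.83% of all genes lower and 4.2% higher. The highest genes of the list were Bsg, Sdhb (242 CPM) and Acly (190.3 CPM).

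All 8 pentose phosphate genes were detected, from H6pd at 3.48 CPM to Taldo1 at 321 CPM, and 0 passed between plates over all 6 libraries (2 at an unadjusted p under 0.05, edgeR). Tkt and Pgls were lower and Rpia higher on plate 2 without the middle library, in a fit that called 7.83% of all genes lower and 4.2% higher. Of 15 genes known to respond to hypoxia 14 were tested and 0 passed over all 6 libraries, with 8 at an unadjusted p under 0.05, beside 16.1% of all genes. Without the middle library 5 were lower (Adm, Ddit4, Higd1a, Bnip3 and P4ha1) and Egln3 was higher, read against the same shares of all genes. Adm differed most, by -1.36 on the log2 scale (edgeR adjusted p = 0.0004). Immune cell markers summed to 0.542 to 0.794 CPM on plate 1 and 1.47 to 1.92 CPM on plate 2, with Ptprc at 4 counts or fewer, and liver and muscle markers to 3.54 to 5.17 CPM, with Alb and Myh1 at 0. Their part in the plate difference was not tested.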

How the data were processed

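Reads were trimmed by the authors (Trim Galore 0.6.4) and quantified on GENCODE transcripts of GRCm38 with Salmon 1.5.1, with its length correction off, then summarised by gene. The deposited table holds expected counts, that is, estimates that can be fractional, with no normalization. Unrounded expected counts were divided by the column total to give CPM, which was not divided by length, and rounded for edgeR and DESeq2. Of 54281 identifiers 54107 matched a symbol. Spans, neighbours and transcript ends are from GENCODE release M21 on GRCm38, and the authors used release M23. The members and lists were chosen with earlier results of these data known.

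For the plate comparison, edgeR 4.0.16 was run with TMM factors and filterByExpr, and its robust quasi-likelihood p-values were adjusted over 15669 genes (Benjamini-Hochberg). In a simulation with the mean levels and totals of these libraries and 200 genes changed 4-fold, 95.5% were recovered and 9.05% of calls were false, above the nominal 5%. It gave every gene the same dispersion and held no outlying library. These rates thus do not carry over to smaller changes or to a set with a library like the middle one of plate 2. Alternatives were DESeq2 1.42.0, limma-voom 3.58.1, other scalings and filters, other pseudocounts than 1 CPM, counts of sequence-sharing genes added, each plate alone, and leaving out every library once. A sharing gene has at least 100 of the 31-mers of the last 300 nt of a member. R 4.3.3, Python 3.11.15, numpy 2.4.6, scipy 1.17.1 and pandas 2.3.3 were used. By the rule for named genes, values in every library were to be given for the leading isozyme of a family and the gene compared with it, for members called between plates and for members near 0, which was followed except for some isozymes and subunits given by mean and SD, and list genes were named by their highest and lowest levels or a call. Fbp2, G6pc3, Slc16a7, Sdhd and Eno2 were named after their values were seen. Some isozymes outside the members are not reported here.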

Additional observations from a re-analysis of the deposited data

Results flagged for a closer look

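In 5 of the 47 members tested, 1 of the 6 libraries lay outside the others by more than Dixon's 95% critical ratio for 6 values (gap to the nearest library over the whole range), and in each it was the middle library of plate 2. Chance gives such a library in about 1 of 20 genes, and among 15708 genes with a mean count of at least 10 it was 6.66% for any library and 4.6% for the middle library of plate 2. Fh1 was at 20.2 CPM there whereas the other 5 lay at 82.5 to 103.8 CPM (ratio 0.745) with a mean of 89.5 CPM. Cs was at 59.9 CPM against 105.7 to 131 CPM (ratio 0.640), with a mean of 117.5 CPM without it. The other 3 members were high in that library: Mdh2 at 608 CPM against 449.7 to 490.0 CPM (ratio 0.745), Got2 at 109.9 CPM against 80.7 to 88.9 CPM (ratio 0.718) and Gapdh at 775 CPM against 586 to 647 CPM (ratio 0.673).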

How the results depend on the processing

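In the comparison of plates, 29 genes and 0 members passed. DESeq2 called 579 genes and 5 members, limma-voom 10 genes and 0 members, scaling by the total alone 1482 genes and 7 members (Glud1, Got1, Idh3b, Pcx, Pdhb, Pdk3 and Pfkfb1, each higher on plate 2), and the fit without a filter on low counts 545 of 27022 genes and 4 members (Ldha, Mpc1, Pck2 and Pfkfb3). RLE size factors gave 34 genes and a limit of 1 CPM in every library 23, with 0 members each. Omitting each library in turn gave 0 to 1911 genes and 0 to 14 members. The counts were 0 without replicate 1 of plate 1 (1611 genes at an unadjusted p under 0.05, edgeR), 2 and 6 without replicates 2 and 3, 0 and 9 without the low and high libraries of plate 2 (2121 and 2092 at an unadjusted p under 0.05), and 1911 without the middle one. The causes were not tested. The number of pairs with one gene higher in every library was 21, and 21 to 22 when a library was omitted, where 5 libraries allow no exact permutation p below 0.0625. It was 22 within each plate and 21 with the other pseudocounts or with counts of sequence-sharing genes added, and none of these 21 pairs changed direction. Of the pairs not separated, Pfkfb1 over Pfkfb4 turned to -0.10 on plate 1 and Idh3a over Idh3g to 0.09 without the middle library of plate 2. Adding those counts moved the mean of Eno1 from 18.1 to 222 CPM and of Gapdh from 651 to 753 CPM. A pseudocount of 0.1 or 5 CPM moved the log2 ratio of the 6 pairs with a gene at or near 0, such as Ldha over Ldhb (7.58, then 10.53 and 5.34). Depth limits Ldhb, Pgam2 and Fbp1, which had at most 5 counts in a library, and Pdk4, Pck1 and G6pc, which had 0. No paired analysis was possible because the sample labels number the replicates 1 to 6. The plate 2 columns, numbered within the plate, could not be matched to those numbers.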
